A study of Mus musculus with 52 samples.

Results

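The comparison described here set gastrocnemius muscle of aged mice after 7 d of reloading (RL7_ML) against muscle after hindlimb unloading (HU_ML), with metformin and leucine given together in the drinking water of both groups. Its 8 libraries, 4 per group, were chosen by the sample titles from 52 libraries in 13 groups, and it was read across all genes: 16668 of 55487 genes had enough counts to be tested. The study combined 4 drinks (water, metformin, leucine, or both) with unloading and with 7 or 14 d of reloading, and added ambulatory mice on water. All groups used here were male C57BL/6 mice of 22 to 24 months. RL7_ML mice had been unloaded and then bore weight again for 7 d, HU_ML mice had been unloaded only, and AMB_W mice, used for reference levels, walked freely and drank plain water. RL7_W, RL7_M and RL7_L were reloaded for 7 d on water, metformin or leucine, and HU_W, HU_M and HU_L were unloaded on the same drinks. Reloaded muscle was also sampled later than unloaded muscle, so that loading and elapsed time cannot be told apart, and no combination group without unloading enters the comparison. Libraries are named by group and by the replicate number of their title (RL7_ML 1, 3, 4 and 6; HU_ML 1, 4, 5 and 6). The labels do not say that replicates of a group are separate mice. P-values therefore measure the spread between samples within groups, estimated over all 13 groups and 52 libraries.

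Hindlimb unloading takes weight off the hind legs. The gastrocnemius, a mostly fast-twitch calf muscle, then loses mass. Muscle that bears no load turns on a breakdown programme in which FoxO transcription factors and glucocorticoid signalling induce ubiquitin ligases, and in which inhibitors of the growth kinase mTORC1 restrain protein synthesis. Reloading reverses the mechanical signal, and the muscle rebuilds its contractile proteins, its connective tissue and its blood vessels. Metformin lowers mitochondrial energy production and activates the energy sensor AMPK, and leucine is an amino acid that activates mTORC1.

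Totals of the 8 libraries ran from 17124804 to 32492548 counts, the highest in HU_ML 4, and in the series from 15605044. Skeletal muscle genes dominated every library: 13 defining genes, among them Acta1, Ckm and Ttn, summed to 290488 to 342157 CPM (counts scaled by library total and TMM factor) in RL7_ML and 296349 to 368398 CPM in HU_ML. The mitochondrial genome took 7.65%, 10.4%, 9.99% and 7.56% of counts in RL7_ML 1, 3, 4 and 6, against 12.6%, 11.2%, 12.6% and 12.2% in HU_ML 1, 4, 5 and 6. The 5.8S ribosomal RNA gene n-R5-8s1, a target of the ribosomal RNA removal step, had 3.28, 2.29, 0.591 and 0.875 CPM in RL7_ML 1, 3, 4 and 6, against 8.82, 5.41, 2.72 and 2.07 CPM in HU_ML 1, 4, 5 and 6. Alb, a liver transcript, had 0.215, 0.176, 9.85 and 0.721 CPM in RL7_ML 1, 3, 4 and 6, against 2.38, 16.5, 0.0446 and 53.99 CPM in HU_ML 1, 4, 5 and 6. HU_ML 4 and 6 are among 12 libraries of the series at or above 16 CPM. These 3 measures moved with the groups or with single libraries, so counts are also given without HU_ML 4, with the 12 liver-transcript libraries left out, and with 5.8S level as a covariate. Their part in the results was otherwise not tested.

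After 7 d of reloading, 985 genes (5.91% of those tested) differed from unloading at an edgeR adjusted p under 0.05: 449 were higher (2.69%) and 536 lower (3.22%). The 12 largest drops among changed genes of at least 1 in mean log2 CPM, with a gene name and with no overlap between the groups, were those of Sln, Arrdc2, Ddit4, Igfn1, Depp1, Doc2b, Foxo1, Fkbp5, Slc25a25, Fam107a, Glul and Arrdc3. The 12 largest rises by the same rule were those of Aplnr, Ifit3b, Gamt, Ccdc69, Hist1h1d, Nab2, Col3a1, Rpph1, Metrn, Golga7b, Vasp and Kbtbd13. For genes chosen by this rule, the lack of overlap was a condition and not a separate result, here and below. Of the 985, 130 rose and 131 fell at least 2-fold, and 17 rose and 31 fell at least 4-fold. The libraries of both groups did not overlap in 851 of the 985. Over all genes tested they did not overlap in 17.7%, with RL7_ML above in 8.78% and below in 8.92%. In a changed gene the lack of overlap is therefore usual and not a separate result, here and below. The median log2 fold change was 0.77 among genes that rose and -0.67 among genes that fell, beside 0.03 over all genes tested, with a median standard error (SE) of 0.23. The count rested in part on single libraries: 359 genes differed without HU_ML 4, 655, 654 and 654 without RL7_ML 1, 3 or 6, and 691 to 1256 without each of the other 4. It was 133 (30 higher, 103 lower) with the 12 liver-transcript libraries left out and 297 (95 higher, 202 lower) with 5.8S level as a covariate. Some other fits called more: DESeq2 1454, a fit of only these 2 groups 1870 and limma voom 2799. Without RL14_ML 1 and 6 (14 d of reloading with both drinks) in the shared estimate of spread the count was 2113. A gene that did not pass here may thus pass in another fit. The strand setting of the counting is not given in the sources used here. Genes with an annotated gene on their other strand are therefore uncertain. Among the changed genes named in the text these are Ccnd1 (opposite LTO1), Cebpd (opposite Spidr), Col18a1 (opposite Slc19a1), Col4a1 (opposite Col4a2), Dbp (opposite Sphk2) and Depp1 (opposite Rassf4). Others are Glul (opposite Teddm2), Jun (opposite Junos), Nab2 (opposite Stat6 and Nemp1), Nid2 (opposite Rtraf), Pgm1 (opposite Itgb3bp), Slc25a25 (opposite Naif1) and Timp4 (opposite Syn2). Those opposite predicted or clone-named genes only are Acta1, Acvr2b, Arntl, Arrdc3, Bcat2, Bnip3, Cblb, Ccn2, Ccnd2, Col15a1, Col4a5, Col5a1, Doc2b, Dpt, Errfi1, Fbxo32, Fkbp5, Foxo1, Hif3a, Il6ra, Mertk, Metrn, Mybpc2, Nedd4l, Nid1, Pcolce, Ppargc1b, Smoc2, Ucp3 and Vasp.

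**Figure D1:**
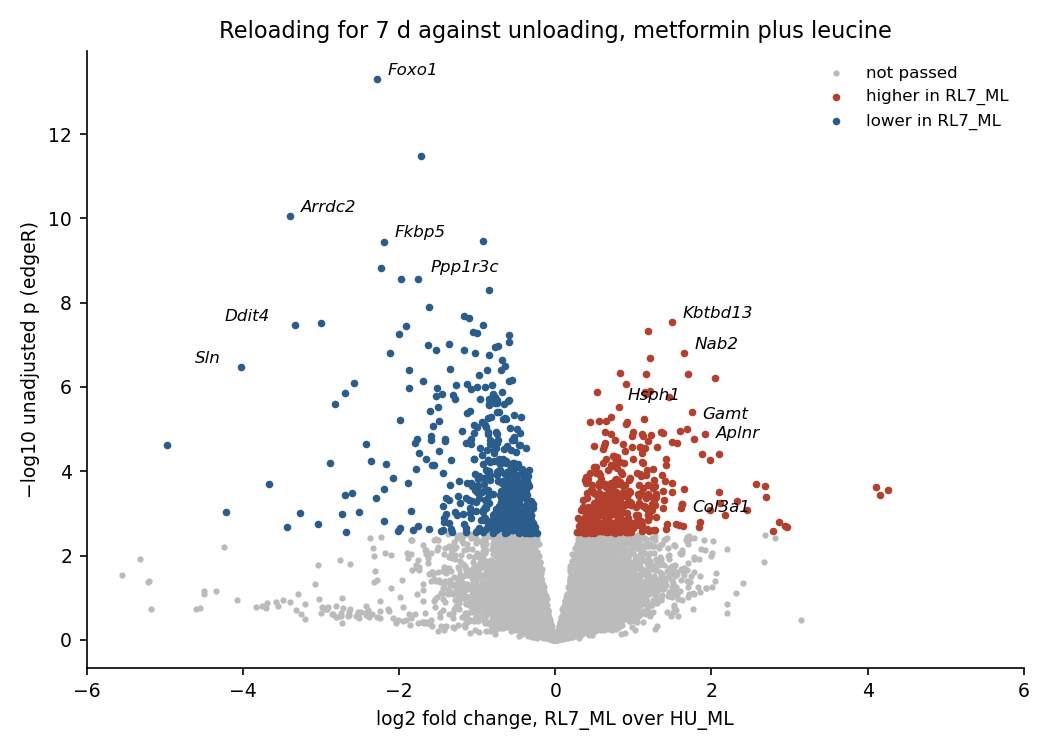
Each point is 1 of the 16668 genes tested, with the log2 fold change of RL7_ML over HU_ML on the x axis and -log10 of the edgeR p-value on the y axis; red points rose (449), blue points fell (536) and grey points did not pass. The labelled genes farthest to the left are Sln, Arrdc2 and Ddit4, and Foxo1 has the smallest p among the named genes.

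Foxo1, the mTORC1 brake Ddit4 and some other genes of the same list fell together. Foxo1, the forkhead factor that switches on the breakdown genes of wasting muscle (ENSMUSG00000044167, chromosome 3 at 52268336 to 52353221 of GRCm38, + strand), had 20.1, 26.03, 24.5 and 26.1 CPM in RL7_ML libraries, against 146, 169, 88.1 and 67.3 CPM in HU_ML libraries. Reloaded libraries lay in a narrow band below every unloaded one, and Foxo1 fell 4.86-fold (log2 fold change -2.28 ± 0.21 SE, adjusted p = 8.07e-10). Ddit4, also called REDD1, which shuts down mTORC1 under stress (ENSMUSG00000020108, chromosome 10 at 59949669 to 59951834 of GRCm38, - strand), had 3.12, 1.28, 1.87 and 2.52 CPM in RL7_ML, against 19.7, 46.4, 11.6 and 9.19 CPM in HU_ML. HU_ML 4 was the highest and the groups did not overlap. Ddit4 fell 10.1-fold (log2 fold change -3.33 ± 0.49 SE, adjusted p = 3.58e-05). Fkbp5, a co-chaperone of the glucocorticoid receptor that the receptor itself induces (ENSMUSG00000024222, chromosome 17 at 28399094 to 28517527 of GRCm38, - strand), had 19.5, 20.8, 19.3 and 14.7 CPM in the reloaded libraries, against 86.4, 126, 69.6 and 56.2 CPM in the unloaded ones. The groups again did not overlap, and Fkbp5 fell 4.55-fold (log2 fold change -2.19 ± 0.27 SE, adjusted p = 1.18e-06). Of 26 FoxO factors, mTORC1 brakes and known targets, 7 fell and 0 rose, beside 3.22% and 2.69% of all genes tested. The median log2 fold change over the list was -0.42. The other 4 that fell were Tsc22d3, Per1, Cebpd and Pdk4. These 4 and Fkbp5 also belong to the list of glucocorticoid-responsive genes below and are counted in both. Foxo3, the other main FoxO factor of muscle, had 32.7, 42.2, 42.99 and 39.2 CPM in RL7_ML libraries, against 47.9, 52.6, 52.7 and 40.4 CPM in HU_ML libraries (log2 fold change -0.302 ± 0.13 SE, adjusted p = 0.15). Eif4ebp1, the translation repressor that mTORC1 switches off, had 16.4 ± 1.71 CPM in RL7_ML and 24.5 ± 6.11 CPM in HU_ML (mean ± SD, n = 4 each) (log2 fold change -0.58 ± 0.201 SE, adjusted p = 0.0692). Against ambulatory muscle, where Foxo1 averaged 37.2 ± 2.84 CPM and Ddit4 2.02 ± 0.711 CPM, the reloaded levels did not pass the test (log2 fold changes -0.62 and 0.12, adjusted p = 0.064 and 0.913). The number of FoxO and mTORC1 brake genes that fell was 11 without HU_ML 6, 5 with the 12 liver-transcript libraries left out and 6 with 5.8S level as a covariate.

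Because Foxo1, Ddit4 and Tsc22d3 fell together and Tsc22d3, which encodes the anti-inflammatory factor GILZ, is a standard glucocorticoid target, a promoter window of each is shown. Each sequence is the 250 bases upstream of the transcription start in RefSeq (GRCm38.p6), read 5′ to 3′ on the gene's strand, with capitals at matches to either motif searched: Foxo1 on the + strand at chr3:52268087-52268336, Ddit4 on the - strand at chr10:59951771-59952020, and Tsc22d3 on the - strand at chrX:140600523-140600772.
Foxo1: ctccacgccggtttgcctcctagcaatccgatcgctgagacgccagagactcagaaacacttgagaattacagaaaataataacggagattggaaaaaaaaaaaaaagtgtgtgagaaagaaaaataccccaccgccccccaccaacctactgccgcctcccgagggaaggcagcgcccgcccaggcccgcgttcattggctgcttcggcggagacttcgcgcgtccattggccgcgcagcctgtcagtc
Ddit4: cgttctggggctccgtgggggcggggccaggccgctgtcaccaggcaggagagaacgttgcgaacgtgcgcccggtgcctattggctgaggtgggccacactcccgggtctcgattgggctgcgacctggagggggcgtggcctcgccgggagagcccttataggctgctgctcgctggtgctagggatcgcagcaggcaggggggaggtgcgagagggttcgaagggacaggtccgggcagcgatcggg
Tsc22d3: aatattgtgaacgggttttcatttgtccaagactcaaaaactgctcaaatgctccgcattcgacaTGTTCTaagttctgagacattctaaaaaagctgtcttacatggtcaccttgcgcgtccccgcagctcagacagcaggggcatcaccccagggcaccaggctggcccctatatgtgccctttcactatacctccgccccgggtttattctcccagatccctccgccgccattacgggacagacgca
The FoxO motif GTAAACA, searched on both strands, was in none of the 3, nor in the windows taken for Fkbp5 and Per1, and is found in 3.17% of 32851 RefSeq promoter windows of this length. The core motif of the glucocorticoid receptor, AGAACA, was searched likewise. It occurs 1 time, on the opposite strand of the Tsc22d3 window, where its match starts 185 bases before the transcription start. It is in 16.08% of windows. The table holds 3 windows for Tsc22d3 and 2 for Per1, and the window nearest the annotated start of the gene was taken. Of the 7 list members that fell, 6 had a promoter in the table. Over all windows of these 6, the FoxO motif was in 0 genes and the receptor motif in 1. A match describes the letters only, and says nothing of binding.

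Glucocorticoid-responsive genes were the list with the most falling members: 13 of 22 fell and 0 rose, beside 3.22% and 2.69% of all genes tested. The log2 fold changes of all 22 were below 0, with a median of -1.12. Arrdc2, an arrestin-domain protein that rises in wasting and fasted muscle (ENSMUSG00000002910, chromosome 8 at 70835129 to 70839720 of GRCm38, - strand), had 7.16, 3.65, 4.97 and 8.55 CPM in RL7_ML, against 63.9, 92.1, 49.3 and 49.5 CPM in HU_ML. The 2 ranges lay far apart, and Arrdc2 fell 10.5-fold (log2 fold change -3.395 ± 0.39 SE, adjusted p = 4.79e-07). This was also below the ambulatory level of 18.9 ± 3.24 CPM (RL7_ML against AMB_W: log2 fold change -1.64, adjusted p = 0.0141), a call that was lost with 5.8S level as a covariate (adjusted p = 0.961). Its relative Arrdc3, which marks surface receptors for removal, had 31.2, 28.9, 30.7 and 39.4 CPM in the reloaded libraries, against 88.9, 232, 77.9 and 87.7 CPM in the unloaded ones. Arrdc3 fell 3.74-fold (log2 fold change -1.905 ± 0.28 SE, adjusted p = 3.58e-05). Sgk1, a kinase that glucocorticoids and salt induce, had 78.4 to 108 CPM in RL7_ML and 166 to 354 CPM in HU_ML. Sgk1 fell 2.55-fold (log2 fold change -1.35, adjusted p = 0.000162). Zbtb16, also known as PLZF, a zinc-finger repressor, had 82.4 to 114 CPM in RL7_ML and 158 to 251 CPM in HU_ML (log2 fold change -1.03, adjusted p = 8.35e-05). Tsc22d3 had 87.5 to 99.9 CPM in RL7_ML and 142 to 268 CPM in HU_ML. Tsc22d3 fell 2.12-fold (log2 fold change -1.08, adjusted p = 0.000318). In these 5 genes no reloaded library reached the lowest unloaded one, which over all genes tested held in 8.92%. Cebpd, an acute-phase transcription factor, had 8.02, 5.06, 5.66 and 8.39 CPM in RL7_ML libraries, against 14.2, 48.3, 15.97 and 11.7 CPM in HU_ML libraries. HU_ML 4 lay far above the other unloaded libraries, and Cebpd fell 3.36-fold (log2 fold change -1.75 ± 0.38 SE, adjusted p = 0.00339). Hif3a, an inhibitory partner of the hypoxia factors, fell 3.48-fold (log2 fold change -1.801, adjusted p = 0.00232). Mt1, a metal-binding metallothionein, fell 2.68-fold (log2 fold change -1.42, adjusted p = 0.0362). The remaining falls were those of Fkbp5, Per1, Pdk4, Errfi1 and Klf9. Errfi1 is a feedback inhibitor of the EGF receptor (log2 fold change -0.62, adjusted p = 0.0384), and Klf9 a zinc-finger factor (log2 fold change -0.55, adjusted p = 0.0142). The number of falling glucocorticoid-responsive genes was 8 without HU_ML 4, 8 with the 12 liver-transcript libraries left out and 9 with 5.8S level as a covariate. When 1 library was left out, the calls that ended were those of Cebpd without HU_ML 4 (0.0919), Mt1 without RL7_ML 1, 3, 4 or 6 or HU_ML 1 or 4 (0.164), Errfi1 without RL7_ML 1, 3, 4 or 6 or HU_ML 4 or 6 (0.162) and Klf9 without HU_ML 4 (0.0754), where parentheses hold the highest adjusted p. Pdk4 was likewise lost without RL7_ML 1, 3, 4 or 6 or HU_ML 1 or 4 (0.23). Missing the threshold were Cebpd, Mt1, Errfi1, Klf9 and Pdk4 with the 12 liver-transcript libraries left out (adjusted p 0.195 to 0.368), and Mt1, Errfi1, Klf9 and Pdk4 with 5.8S level as a covariate (0.0837 to 0.437).

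**Figure D2:**
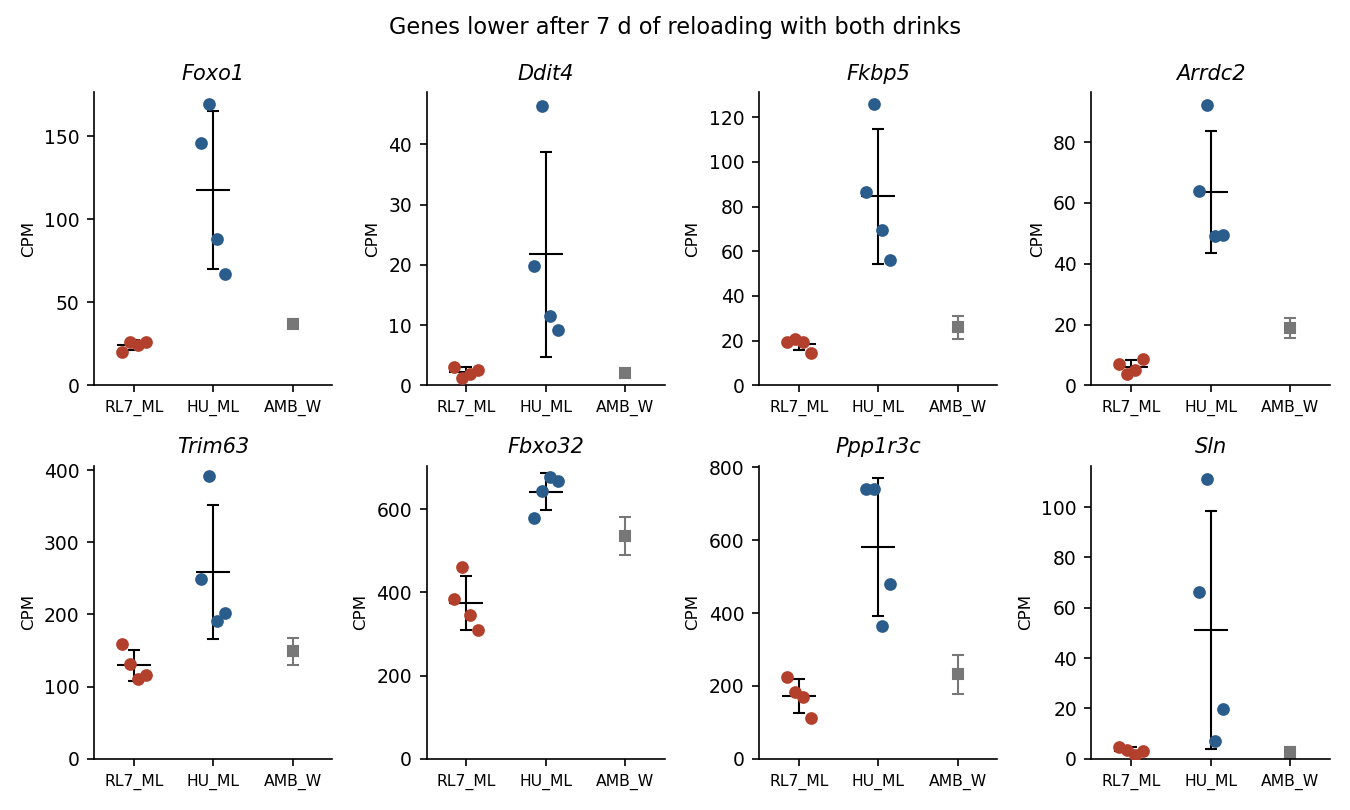
Levels in CPM (linear axis) of 8 genes that fell. Each dot is 1 library of RL7_ML or HU_ML. Bars are the mean ± SD of 4 libraries, and the grey square is the mean ± SD of AMB_W. In each panel every RL7_ML dot lies below every HU_ML dot; in Sln the HU_ML dots run from 7.09 to 111 CPM.

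Both classic ubiquitin ligases of wasting muscle fell. Trim63, which encodes MuRF1, a ligase that tags sarcomere proteins for degradation (ENSMUSG00000028834, chromosome 4 at 134315120 to 134329629 of GRCm38, + strand), had 159, 132, 110.1 and 116 CPM in RL7_ML, against 249.7, 392, 191 and 202 CPM in HU_ML. Every reloaded library was below every unloaded one, and the drop was 1.999-fold (log2 fold change -0.9996 ± 0.26 SE, adjusted p = 0.0135). Fbxo32, which encodes atrogin-1, the other classic wasting ligase (ENSMUSG00000022358, chromosome 15 at 58175879 to 58214932 of GRCm38, - strand), had 384, 462, 346 and 310.1 CPM in the reloaded libraries, against 579, 644, 678 and 666 CPM in the unloaded ones. This was a 1.71-fold drop without overlap (log2 fold change -0.77 ± 0.23 SE, adjusted p = 0.0351). Of 20 ligases and related factors 5 fell and 0 rose, beside 3.22% and 2.69% of all genes tested. Nedd4l, which acts on membrane channels, fell (log2 fold change -0.53, adjusted p = 0.0175). Traf6, an adaptor ligase of NF-kappa-B signalling, fell as well (log2 fold change -0.38, adjusted p = 0.0212). So did Cblb, which targets the insulin receptor substrate IRS1 in unloaded muscle (log2 fold change -0.48, adjusted p = 0.047). The list median was -0.10. Of 30 proteasome subunits and assembly factors 0 rose and 0 fell, with log2 fold changes between -0.48 and 0.52. Other fits called a few of them: limma voom 1 higher and 5 lower, a fit of only these groups 0 and 3, and the fit without RL14_ML 1 and 6 (14 d of reloading with both drinks) 1 and 2. Of 25 autophagy genes 3 fell and 0 rose. They were Map1lc3a, a coat protein of the autophagosome (log2 fold change -0.74, adjusted p = 0.00682), and Bnip3, a mitophagy receptor (log2 fold change -0.52, adjusted p = 0.0223). The third was Lamp2, a lysosomal membrane protein (log2 fold change -0.42, adjusted p = 0.0466). The number of falling ligases was 0 without HU_ML 4, 2 without RL7_ML 1, 3 without RL7_ML 4 or HU_ML 6, 0 with the 12 liver-transcript libraries left out and 0 with 5.8S level as a covariate. Leaving out 1 library at a time ended the calls of Trim63 without HU_ML 4 (0.112), Fbxo32 without RL7_ML 1, 4 or 6 or HU_ML 4 or 6 (0.0929) and Nedd4l without RL7_ML 1 or HU_ML 4 (0.106), where parentheses hold the highest adjusted p. Likewise lost were Traf6 without HU_ML 4 or 6 (0.0665), Cblb without RL7_ML 1, 3 or 4 or HU_ML 1 or 4 (0.228) and Map1lc3a without HU_ML 4 (0.066). So were Bnip3 without RL7_ML 6 or HU_ML 4 (0.107) and Lamp2 without RL7_ML 1, 3, 4 or 6 or HU_ML 4 or 6 (0.144). These 8 genes also missed the threshold with the 12 liver-transcript libraries left out (adjusted p 0.101 to 0.424) and with 5.8S level as a covariate (0.0619 to 0.439).

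In insulin, amino acid and growth signalling single genes passed the test, beside 5.91% of all genes tested. Pik3r1, the p85-alpha regulatory subunit of PI3-kinase, through which insulin and IGF-1 signal, had 42.2, 47.7, 43.7 and 53.2 CPM in RL7_ML libraries, against 94.1, 127, 91.9 and 89.9 CPM in HU_ML libraries. The groups did not overlap and Pik3r1 fell 2.16-fold (log2 fold change -1.11 ± 0.17 SE, adjusted p = 3.18e-05). Igfbp3, which binds IGFs in the circulation and in tissue, fell 2.002-fold (log2 fold change -1.001, adjusted p = 0.000297). These were the 2 of 21 insulin and IGF genes that changed. Igf1 itself stood at 37.3 ± 7.54 CPM in RL7_ML and 37.4 ± 9.71 CPM in HU_ML (log2 fold change -0.003 ± 0.197 SE, adjusted p = 0.995). Of 28 leucine-sensing and mTORC1 genes 0 changed, with a median log2 fold change of 0.01. Slc38a2, the SNAT2 transporter of small neutral amino acids, was the 1 changed gene of 22 amino acid transporters and ATF4 targets, and fell 1.61-fold (log2 fold change -0.69, adjusted p = 0.0185). Glul, glutamine synthetase (ENSMUSG00000026473, chromosome 1 at 153899944 to 153909723 of GRCm38, + strand), which makes glutamine for export from wasting muscle, had 152, 152, 146 and 152 CPM in RL7_ML, against 564, 1062, 341 and 392 CPM in HU_ML. The reloaded libraries were nearly equal and all unloaded ones higher, and Glul fell 3.92-fold (log2 fold change -1.97 ± 0.27 SE, adjusted p = 5.62e-06). Acvr2b, the activin receptor through which myostatin restrains muscle growth, was the 1 changed gene of 28 in the TGF-beta and myostatin list, and rose 1.69-fold (log2 fold change 0.76, adjusted p = 0.0141). Mstn, which encodes myostatin, had 61.3 ± 5.56 CPM in RL7_ML and 74.002 ± 29.5 CPM in HU_ML (log2 fold change -0.27 ± 0.33 SE, adjusted p = 0.659). Of 33 ribosomal proteins, Rpl22 (log2 fold change -0.68, adjusted p = 0.0175) and Rpl14 (log2 fold change -0.68, adjusted p = 0.0353) fell. Calls lost when 1 library was left out were those of Slc38a2 without RL7_ML 6 or HU_ML 4 (0.0621), Acvr2b without HU_ML 1 or 4 (0.102), Rpl22 without RL7_ML 3 or 6 or HU_ML 4 (0.0693) and Rpl14 without RL7_ML 3, 4 or 6 or HU_ML 1, 4 or 6 (0.1), where parentheses hold the highest adjusted p. These 4 genes also missed the threshold with the 12 liver-transcript libraries left out (adjusted p 0.205 to 0.347) and with 5.8S level as a covariate (0.0709 to 0.293).

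Among fuel genes, Pdk4, Ucp3 and Ppp1r3c fell, and 5 of 19 glycolysis genes rose. The 19 are gene identifiers under 18 symbols. Of all genes tested 2.69% rose and 3.22% fell. Pdk4, a kinase that blocks the entry of glucose carbon into the citric acid cycle (ENSMUSG00000019577, chromosome 6 at 5483351 to 5496309 of GRCm38, - strand), had 656, 509.8, 332 and 621 CPM in the reloaded libraries, against 1514, 2246, 762 and 779 CPM in the unloaded ones. The groups were close but did not overlap, and Pdk4 fell 2.503-fold (log2 fold change -1.32 ± 0.42 SE, adjusted p = 0.0477). Ucp3, an uncoupling protein of the inner mitochondrial membrane that follows fat supply, had 150.4, 97.3, 73.5 and 119 CPM in RL7_ML libraries, against 288, 342, 164 and 137 CPM in HU_ML libraries. RL7_ML 1 lay above HU_ML 6, and Ucp3 fell 2.12-fold (log2 fold change -1.08 ± 0.31 SE, adjusted p = 0.032). Ppp1r3c, which brings protein phosphatase 1 to glycogen (ENSMUSG00000067279, chromosome 19 at 36731731 to 36736653 of GRCm38, - strand), had 224, 182, 170.1 and 112 CPM in RL7_ML, against 742, 741, 365 and 481 CPM in HU_ML. Every unloaded library exceeded every reloaded one, and Ppp1r3c fell 3.38-fold (log2 fold change -1.76 ± 0.24 SE, adjusted p = 5.62e-06). Pgm1, which links glycogen to glycolysis, rose 1.44-fold (log2 fold change 0.53, adjusted p = 0.0281). Both were the only changed genes of the 18 in glycogen metabolism. Of the glycolysis genes 0 fell, and their median log2 fold change was 0.40. Pgam2, the muscle phosphoglycerate mutase, had 864, 625, 734 and 678 CPM in the reloaded libraries, against 565, 344, 391 and 371 CPM in the unloaded ones. Pgam2 rose 1.74-fold (log2 fold change 0.796 ± 0.18 SE, adjusted p = 0.00444). Muscle enolase Eno3 (log2 fold change 0.62, adjusted p = 0.0212) and the phosphoglycerate kinase Pgk1 (log2 fold change 0.63, adjusted p = 0.0185) rose. So did Eno1, the enolase of most other tissues (log2 fold change 0.75, adjusted p = 0.0369), and Ldha, which makes lactate (log2 fold change 0.495, adjusted p = 0.043). Gamt, which completes creatine synthesis (ENSMUSG00000020150, chromosome 10 at 80258151 to 80261012 of GRCm38, - strand), had 10.3, 8.44, 10.1 and 10.3 CPM in RL7_ML libraries, against 3.46, 3.29, 1.38 and 3.59 CPM in HU_ML libraries. All reloaded libraries lay above all unloaded ones and Gamt rose 3.35-fold (log2 fold change 1.75 ± 0.33 SE, adjusted p = 0.000743). It was the 1 changed gene of 6 in creatine metabolism. The number of rising glycolysis genes was 1 without RL7_ML 1 or HU_ML 4, 5 or 6, 2 without RL7_ML 4, 3 without RL7_ML 6, 0 with the 12 liver-transcript libraries left out and 1 with 5.8S level as a covariate. With 1 library left out at a time, the calls lost were those of Pdk4 without RL7_ML 1, 3, 4 or 6 or HU_ML 1 or 4 (0.23), Ucp3 without RL7_ML 3, 4 or 6 or HU_ML 1 or 4 (0.156) and Pgm1 without RL7_ML 1, 4 or 6 or HU_ML 4 or 5 (0.14), where parentheses hold the highest adjusted p. Likewise lost were Eno3 without RL7_ML 1 or 4 or HU_ML 4, 5 or 6 (0.117), Pgk1 without RL7_ML 1 or HU_ML 4, 5 or 6 (0.0976), Eno1 without RL7_ML 1, 4 or 6 or HU_ML 4, 5 or 6 (0.113) and Ldha without RL7_ML 1, 4 or 6 or HU_ML 4, 5 or 6 (0.19). The threshold was missed by Pdk4, Ucp3, Pgm1, Pgam2, Eno3, Pgk1, Eno1 and Ldha with the 12 liver-transcript libraries left out (adjusted p 0.199 to 0.353), and by Pdk4, Ucp3, Pgm1, Eno3, Pgk1, Eno1 and Ldha with 5.8S level as a covariate (0.146 to 0.437).

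The mitochondrial genes that passed the test moved in both directions. Over all genes tested, 5.91% passed. Slc25a25, an ATP and phosphate carrier of the inner membrane (ENSMUSG00000026819, chromosome 2 at 32414487 to 32451445 of GRCm38, - strand), had 10.5, 11.4, 12.02 and 15.7 CPM in RL7_ML, against 61.8, 67.4, 52.02 and 33.5 CPM in HU_ML. Slc25a25 fell 4.33-fold (log2 fold change -2.12 ± 0.34 SE, adjusted p = 8.35e-05). Ppargc1b, the PGC-1 beta coactivator of mitochondrial and vessel growth, had 20.6, 24.1, 24.9 and 29.6 CPM in the reloaded libraries, against 14.2, 8.76, 16.2 and 13.03 CPM in the unloaded ones. Ppargc1b rose 1.91-fold (log2 fold change 0.93 ± 0.24 SE, adjusted p = 0.0142). Neither gene overlapped between the groups, and they were the 2 of 29 mitochondrial biogenesis genes that changed. Its relative Ppargc1a, PGC-1 alpha, had 53.7, 55.6, 63.03 and 43.9 CPM in RL7_ML libraries, against 88.5, 83.7, 66.4 and 72.9 CPM in HU_ML libraries. Reloaded libraries were the lower ones, and the test did not pass (log2 fold change -0.53 ± 0.29 SE, adjusted p = 0.271). Of 32 citric acid cycle and fat oxidation genes 2 rose and 2 fell, Pdk4 and Ucp3. Those that rose were Cs, citrate synthase (log2 fold change 0.53, adjusted p = 0.0395), and Mdh2, malate dehydrogenase (log2 fold change 0.49, adjusted p = 0.0428). Of 22 genes for breaking down branched-chain amino acids, the route that consumes leucine, 2 rose and 0 fell. Bcat2 removes the amino group (log2 fold change 0.67, adjusted p = 0.0175), and Ivd acts later on the leucine carbon chain (log2 fold change 0.53, adjusted p = 0.0359). Of 37 nuclear-encoded respiratory chain subunits 0 changed, with a median log2 fold change of 0.27. Of 13 genes of the mitochondrial genome 1 fell, mt-Nd2, a subunit of complex I, at 7799 ± 1815 CPM in RL7_ML and 14664 ± 1598 CPM in HU_ML (log2 fold change -0.91, adjusted p = 0.0342). The list median was -0.65, and the mitochondrial share of counts was lower in each reloaded library. When 1 library was left out, the calls that ended were those of Ppargc1b without RL7_ML 6 or HU_ML 4 (0.109), Cs without RL7_ML 1, 3, 4 or 6 or HU_ML 1, 4 or 6 (0.144) and Mdh2 without RL7_ML 1, 3, 4 or 6 or HU_ML 1, 4 or 6 (0.168), where parentheses hold the highest adjusted p. Likewise lost were Bcat2 without RL7_ML 1 or 4 or HU_ML 1 or 4 (0.0985), Ivd without RL7_ML 1, 4 or 6 or HU_ML 1, 4 or 6 (0.165) and mt-Nd2 without RL7_ML 1 or 6 or HU_ML 1, 4 or 6 (0.099). These 6 genes also missed the threshold with the 12 liver-transcript libraries left out (adjusted p 0.135 to 0.523) and with 5.8S level as a covariate (0.0871 to 0.317). The lost calls of Pdk4 and Ucp3 are given with the fuel genes.

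Several genes of the connective tissue rose. Of 30 fibrillar collagens and other matrix proteins 7 rose and 0 fell, beside 2.69% and 3.22% of all genes tested. Of the 30 log2 fold changes 27 were above 0, with a median of 0.65. Col3a1, the chain of type III collagen (ENSMUSG00000026043, chromosome 1 at 45311538 to 45349706 of GRCm38, + strand), had 113, 150.4, 74.8 and 65.2 CPM in RL7_ML, against 35.8, 36.4, 31.9 and 26.97 CPM in HU_ML. All reloaded libraries were higher, RL7_ML 3 the most, and Col3a1 rose 3.07-fold (log2 fold change 1.62 ± 0.43 SE, adjusted p = 0.0195). Col1a2, a chain of type I collagen, had 77.9, 129, 72.3 and 75.96 CPM in the reloaded libraries, against 31.7, 26.02, 38.3 and 30.3 CPM in the unloaded ones. Col1a2 rose 2.81-fold (log2 fold change 1.49 ± 0.38 SE, adjusted p = 0.0132). Col1a1, the other type I chain (ENSMUSG00000001506, chromosome 11 at 94936224 to 94953042 of GRCm38, + strand), had 32.7, 112, 44.7 and 42.6 CPM in RL7_ML libraries, against 18.005, 16.2, 22.04 and 14.9 CPM in HU_ML libraries. The groups did not overlap, but RL7_ML 3 stood well above the rest and the test did not pass (log2 fold change 1.71 ± 0.55 SE, adjusted p = 0.055). The 3 chains of the microfibrillar type VI collagen all rose. Col6a2 had 48.7, 60.5, 43.7 and 46.3 CPM in RL7_ML, against 22.3, 17.4, 22.9 and 18.2 CPM in HU_ML. Its reloaded libraries were all higher (log2 fold change 1.303 ± 0.28 SE, adjusted p = 0.00263). Col6a1 rose 2.15-fold (log2 fold change 1.103, adjusted p = 0.00779) and Col6a3 2.095-fold (log2 fold change 1.07, adjusted p = 0.0103). Col5a1, which starts collagen fibrils, rose 1.92-fold (log2 fold change 0.94, adjusted p = 0.0364). Col15a1, which ties basement membranes to the matrix, rose 2.58-fold (log2 fold change 1.37, adjusted p = 0.00726). The number of rising matrix genes was 1 without HU_ML 4, 3 without RL7_ML 3, 0 with the 12 liver-transcript libraries left out and 1 with 5.8S level as a covariate. Leaving out 1 library at a time ended the calls of Col3a1 without RL7_ML 3 or HU_ML 4 or 6 (0.0866), Col1a2 without RL7_ML 3 or HU_ML 4 (0.0702) and Col6a1 without HU_ML 4 (0.0651), where parentheses hold the highest adjusted p. Likewise lost were Col6a3 without RL7_ML 3 or HU_ML 4 (0.0665), Col5a1 without RL7_ML 3, 4 or 6 or HU_ML 1, 4, 5 or 6 (0.148) and Col15a1 without HU_ML 4 (0.067). The threshold was missed by Col3a1, Col1a2, Col6a2, Col6a1, Col6a3, Col5a1 and Col15a1 with the 12 liver-transcript libraries left out (adjusted p 0.0969 to 0.288), and by Col3a1, Col1a2, Col6a1, Col6a3, Col5a1 and Col15a1 with 5.8S level as a covariate (0.0615 to 0.242).

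The genes that process collagen moved both ways. Serpinh1, the collagen chaperone HSP47, had 22.2, 25.2, 19.7 and 16.6 CPM in the reloaded libraries, against 11.1, 7.503, 11.2 and 7.18 CPM in the unloaded ones. Serpinh1 rose 2.27-fold (log2 fold change 1.18 ± 0.27 SE, adjusted p = 0.0064). Pcolce, which helps trim procollagen (log2 fold change 0.85, adjusted p = 0.00723), and P4ha1, a prolyl hydroxylase (log2 fold change 0.42, adjusted p = 0.0451), also rose. Timp4, an inhibitor of matrix proteases, fell (log2 fold change -0.92, adjusted p = 0.00499). Also lower in reloaded muscle were Ccn1 (log2 fold change -0.98, adjusted p = 0.00753) and Ccn2 (log2 fold change -1.09, adjusted p = 0.0222), secreted proteins that mechanical load and YAP signalling induce. That made 3 higher and 3 lower of 35 matrix enzymes and regulators, beside 2.69% and 3.22% of all genes tested. Lox, which crosslinks collagen, stood at 11.7 ± 2.96 CPM in RL7_ML and 17.6 ± 6.01 CPM in HU_ML (log2 fold change -0.59 ± 0.27 SE, adjusted p = 0.174). Tnc, tenascin C, was at 12.4 ± 6.28 CPM in RL7_ML and 6.396 ± 2.27 CPM in HU_ML (log2 fold change 0.97 ± 0.46 SE, adjusted p = 0.204). Postn, periostin, was at 7.05 ± 3.25 CPM in RL7_ML and 8.08 ± 3.78 CPM in HU_ML (log2 fold change -0.21 ± 0.42 SE, adjusted p = 0.813). Calls lost when 1 library was left out were those of Serpinh1 without HU_ML 4 (0.0506), P4ha1 without RL7_ML 1, 3, 4 or 6 or HU_ML 1, 4 or 5 (0.292) and Ccn2 without RL7_ML 1 or 4 or HU_ML 4 (0.084), where parentheses hold the highest adjusted p. Missing the threshold were Serpinh1, Pcolce, P4ha1, Ccn1 and Ccn2 with the 12 liver-transcript libraries left out (adjusted p 0.106 to 0.22), and Pcolce, P4ha1 and Ccn2 with 5.8S level as a covariate (0.0871 to 0.146).

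In the basement membrane, the sheet that wraps each fibre and capillary, 6 of 17 genes rose and 0 fell, with a median log2 fold change of 0.61. Among all genes tested 2.69% rose and 3.22% fell. Col4a1, a chain of its type IV collagen (ENSMUSG00000031502, chromosome 8 at 11198423 to 11312826 of GRCm38, - strand), had 86.4, 105, 93.8 and 74.98 CPM in RL7_ML libraries, against 53.6, 40.8, 52.4 and 38.8 CPM in HU_ML libraries. The lowest reloaded library lay above the highest unloaded one, and Col4a1 rose 1.94-fold (log2 fold change 0.95 ± 0.24 SE, adjusted p = 0.0132). Agrn, agrin, which organises the neuromuscular junction and binds laminin, had 10.4, 14.2, 13.98 and 13.1 CPM in RL7_ML, against 6.2003, 7.53, 9.101 and 6.27 CPM in HU_ML. Agrn rose 1.77-fold (log2 fold change 0.83 ± 0.203 SE, adjusted p = 0.00954). Nid1 (log2 fold change 0.62, adjusted p = 0.0436) and Nid2 (log2 fold change 0.83, adjusted p = 0.0175), which link laminin to type IV collagen, rose too. Col18a1 (log2 fold change 1.16, adjusted p = 0.0222) and Col4a5 (log2 fold change 1.25, adjusted p = 0.0199) were the others. In all 6 the groups did not overlap, as in 851 of the 985 changed genes. Over all genes tested RL7_ML lay above without overlap in 8.78%. Of 18 markers of fibroblasts and fibro-adipogenic progenitors, the cells that make most of this matrix, 3 rose and 0 fell. Smoc2, a matrix protein of these cells, had 68.2, 61.2, 64.01 and 82.8 CPM in the reloaded libraries, against 44.5, 34.3, 47.8 and 41.6 CPM in the unloaded ones. Smoc2 rose 1.64-fold (log2 fold change 0.72 ± 0.15 SE, adjusted p = 0.00167). Dpt, dermatopontin, rose 1.74-fold (log2 fold change 0.801, adjusted p = 0.0361), and Clec3b, tetranectin, 2.18-fold (log2 fold change 1.12, adjusted p = 0.00179). The 18 markers summed to 608 to 740.3 CPM in RL7_ML and 517 to 574 CPM in HU_ML, without overlap. In bulk tissue more cells of a type and more RNA per cell cannot be told apart. Of 12 tendon cell markers 0 changed, and their sum was 132 to 319 CPM in RL7_ML and 109 to 213 CPM in HU_ML. The number of rising basement membrane genes was 1 without HU_ML 4, 3 without RL7_ML 3 or 6 or HU_ML 6, 0 with the 12 liver-transcript libraries left out and 0 with 5.8S level as a covariate. With 1 library left out at a time, the calls lost were those of Col4a1 without RL7_ML 3 or HU_ML 4 or 6 (0.0741), Nid1 without any 1 of the 8 libraries (0.192) and Nid2 without RL7_ML 6 or HU_ML 4 (0.113), where parentheses hold the highest adjusted p. Likewise lost were Col18a1 without RL7_ML 3 or 6 or HU_ML 4 (0.118), Col4a5 without RL7_ML 1 or HU_ML 4 or 6 (0.131) and Dpt without RL7_ML 1, 3 or 6 or HU_ML 1, 4, 5 or 6 (0.148). The threshold was missed by Col4a1, Agrn, Nid1, Nid2, Col18a1, Col4a5, Smoc2 and Dpt with the 12 liver-transcript libraries left out (adjusted p 0.148 to 0.493), and by Col4a1, Agrn, Nid1, Nid2, Col18a1, Col4a5 and Dpt with 5.8S level as a covariate (0.0903 to 0.214).

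**Figure D3:**
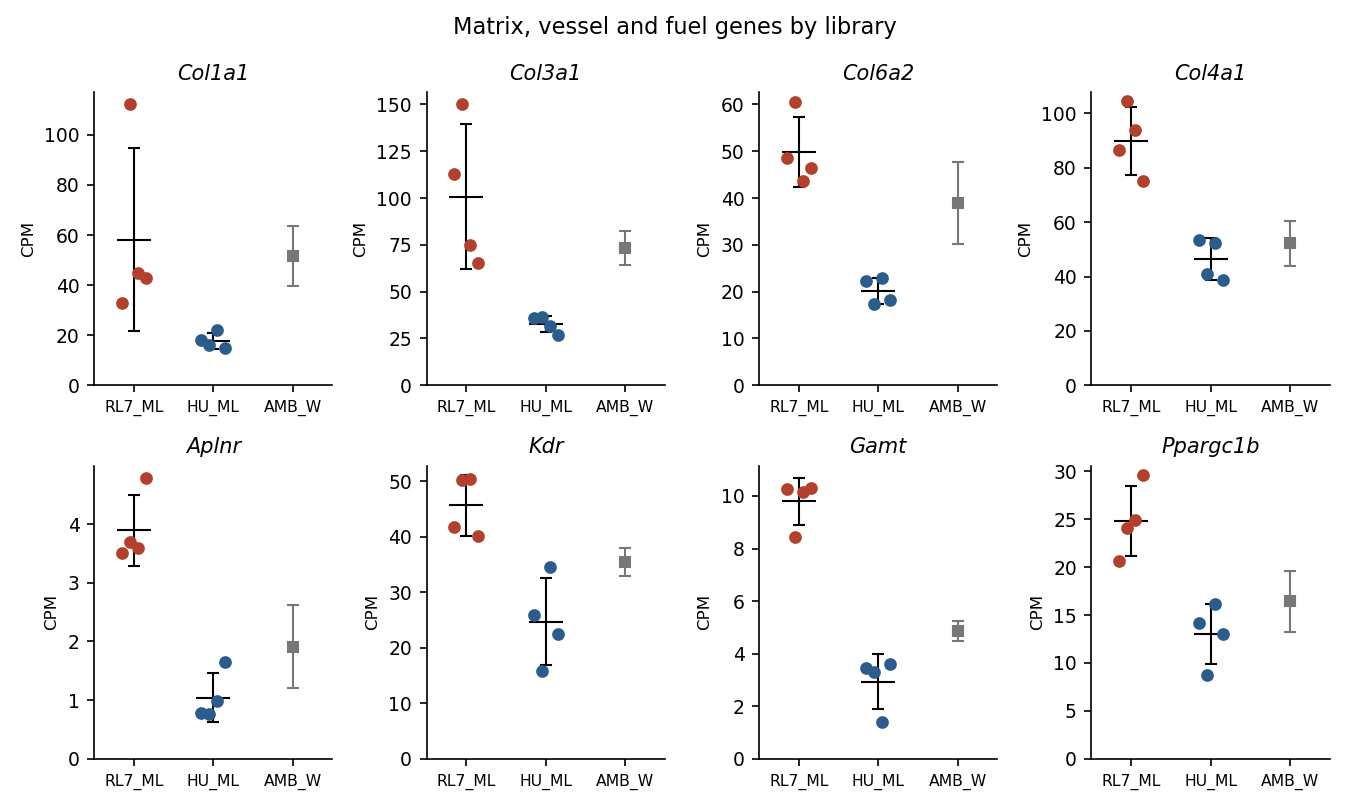
Levels in CPM (linear axis) of 8 genes that were higher after reloading. Dots are single libraries of RL7_ML and HU_ML. Bars are the mean ± SD of 4 libraries, and the grey square is the mean ± SD of AMB_W. No panel shows overlap between the 2 groups; Col1a1 is included although its adjusted p was 0.055, with RL7_ML 3 at 112 CPM.

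Of 24 endothelial and vessel growth genes 3 rose and 1 fell, beside 2.69% and 3.22% of all genes tested. Aplnr, the receptor for apelin, a peptide that exercised muscle releases (ENSMUSG00000044338, chromosome 2 at 85136225 to 85139923 of GRCm38, + strand), had 3.499, 3.69, 3.59 and 4.79 CPM in RL7_ML libraries, against 0.775, 0.769, 0.982 and 1.64 CPM in HU_ML libraries. The groups did not overlap and Aplnr rose 3.79-fold (log2 fold change 1.92 ± 0.39 SE, adjusted p = 0.00167). Kdr, the main receptor for VEGF (ENSMUSG00000062960, chromosome 5 at 75932827 to 75978458 of GRCm38, - strand), had 41.8, 50.3, 50.3 and 40.1 CPM in RL7_ML, against 25.9, 15.9, 34.6 and 22.4 CPM in HU_ML. HU_ML 4 was the lowest, and Kdr rose 1.85-fold (log2 fold change 0.89 ± 0.24 SE, adjusted p = 0.0206). Cldn5, the tight junction protein claudin 5, had 6.78, 3.96, 4.09 and 4.27 CPM in the reloaded libraries, against 2.504, 2.68, 2.77 and 2.25 CPM in the unloaded ones. Cldn5 rose 1.86-fold (log2 fold change 0.896 ± 0.22 SE, adjusted p = 0.0103). Rgcc, a cell cycle regulator strong in endothelium, fell 1.64-fold (log2 fold change -0.72, adjusted p = 0.0208). The median log2 fold change of the 24 was 0.36. The 24 genes summed to 810 to 850 CPM in RL7_ML, which lay within the 599.9 to 903 CPM of HU_ML. Of 10 smooth muscle and pericyte markers 0 changed. When 1 library was left out, the calls that ended were those of Kdr without RL7_ML 3 or 4 or HU_ML 4 or 6 (0.14), Cldn5 without RL7_ML 1 (0.0878) and Rgcc without RL7_ML 4 or HU_ML 4 (0.101), where parentheses hold the highest adjusted p. Missing the threshold were Kdr, Cldn5 and Rgcc with the 12 liver-transcript libraries left out (adjusted p 0.235 to 0.477), and Kdr and Rgcc with 5.8S level as a covariate (0.0959 to 0.12).

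In the fibres themselves, single contractile genes passed the test, beside 5.91% of all genes tested. Sln, sarcolipin, a small peptide that inhibits the calcium pump of the sarcoplasmic reticulum (ENSMUSG00000042045, chromosome 9 at 53850164 to 53854560 of GRCm38, + strand), had 4.74, 3.43, 1.38 and 3.09 CPM in RL7_ML libraries, against 66.4, 111, 7.09 and 19.9 CPM in HU_ML libraries. Unloaded libraries spread widely, yet each exceeded every reloaded one, and Sln fell 16.2-fold (log2 fold change -4.02 ± 0.66 SE, adjusted p = 0.000151). This was the largest drop among the named genes. Sln was the 1 changed gene of 15 in the slow-twitch list, whose summed level was 817 to 1451 CPM in RL7_ML and 509.98 to 2663 CPM in HU_ML. Mybpc2, the fast myosin-binding protein C, was the 1 of 14 fast-twitch genes, and rose 1.49-fold (log2 fold change 0.57, adjusted p = 0.0451). Acta1, skeletal muscle actin, had 16240.1, 12419, 14621 and 13201 CPM in RL7_ML, against 9637, 5899.97, 8360 and 7412 CPM in HU_ML. All reloaded libraries were higher, and it was the 1 changed gene of 13 defining muscle genes (log2 fold change 0.85 ± 0.25 SE, adjusted p = 0.0357). Igfn1, a sarcomere Z-disc protein, had 8.397, 24.8, 0.886 and 9.37 CPM in the reloaded libraries, against 99.4, 65.4, 59.4 and 64.7 CPM in the unloaded ones. RL7_ML 4 lay far below the rest, and Igfn1 fell 6.61-fold (log2 fold change -2.72 ± 0.77 SE, adjusted p = 0.0281). Kbtbd13, a kelch protein of the thin filament that is mutated in a nemaline myopathy, rose 2.83-fold (log2 fold change 1.499, adjusted p = 3.58e-05). Chrnb1, an acetylcholine receptor subunit, was the 1 changed gene of 16 in the neuromuscular junction and denervation list, and fell 1.86-fold (log2 fold change -0.896, adjusted p = 0.0124). Of 19 stretch-responsive sarcomere genes 0 changed, Ankrd1 (log2 fold change -1.01 ± 0.55 SE, adjusted p = 0.268) and Csrp3 (log2 fold change -0.16 ± 0.94 SE, adjusted p = 0.94) among them. Leaving out 1 library at a time ended the calls of Mybpc2 without any 1 of the 8 libraries (0.209), Acta1 without RL7_ML 1, 3, 4 or 6 or HU_ML 4 or 6 (0.156), Igfn1 without RL7_ML 1, 4 or 6 or HU_ML 1 or 4 (0.084) and Chrnb1 without HU_ML 4 (0.0711), where parentheses hold the highest adjusted p. These 4 genes also missed the threshold with the 12 liver-transcript libraries left out (adjusted p 0.126 to 0.379) and with 5.8S level as a covariate (0.154 to 0.351).

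Genes of satellite cells, the stem cells of muscle, moved in both directions or did not pass the test. Pax7, their defining transcription factor (ENSMUSG00000028736, chromosome 4 at 139737062 to 139833528 of GRCm38, - strand), had 2.21, 2.46, 2.56 and 1.65 CPM in RL7_ML libraries, against 1.13, 1.94, 1.695 and 2.19 CPM in HU_ML libraries. The ranges overlapped and the test did not pass (log2 fold change 0.35 ± 0.28 SE, adjusted p = 0.466). Myod1, the factor of activated myoblasts, had 8.77, 10.1, 11.5 and 9.42 CPM in RL7_ML, against 6.2003, 6.46, 9.28 and 5.97 CPM in HU_ML (log2 fold change 0.51 ± 0.28 SE, adjusted p = 0.277). Myog, of differentiating myoblasts, had 1.85 ± 0.355 CPM in RL7_ML and 1.36 ± 0.359 CPM in HU_ML (log2 fold change 0.42 ± 0.42 SE, adjusted p = 0.584). Myf5 had 0.939 ± 0.243 CPM in RL7_ML and 1.27 ± 0.354 CPM in HU_ML (log2 fold change -0.43 ± 0.34 SE, adjusted p = 0.463). Myf6, also called MRF4, the myogenic factor of mature fibres, had 49.3, 44.2, 46.04 and 39.9 CPM in the reloaded libraries, against 105, 92.6, 62.7 and 65.6 CPM in the unloaded ones. Myf6 fell 1.81-fold (log2 fold change -0.86 ± 0.202 SE, adjusted p = 0.00685). Of 23 satellite cell and myogenic genes 1 rose and 2 fell, beside 2.69% and 3.22% of all genes tested. The Notch target Heyl rose (log2 fold change 0.74, adjusted p = 0.0186), and the proteoglycan Sdc4 fell beside Myf6 (log2 fold change -0.63, adjusted p = 0.0439). Of 13 genes of regenerating or embryonic fibres 0 changed. Embryonic myosin Myh3 had 5.05 ± 2.77 CPM in RL7_ML and 8.07 ± 3.75 CPM in HU_ML (log2 fold change -0.69 ± 0.797 SE, adjusted p = 0.64). Neonatal myosin Myh8 had 19.01 ± 6.66 CPM in RL7_ML and 23.6 ± 6.52 CPM in HU_ML (log2 fold change -0.32 ± 0.35 SE, adjusted p = 0.622). Of 19 cell cycle genes 5 rose and 0 fell, beside the same shares of all genes tested. Aurka, a mitotic kinase, had 7.37, 7.299, 6.16 and 4.94 CPM in RL7_ML libraries, against 2.504, 1.78, 3.61 and 4.08 CPM in HU_ML libraries. The groups did not overlap and Aurka rose 2.18-fold (log2 fold change 1.12 ± 0.26 SE, adjusted p = 0.00493). Mcm2, a replication helicase subunit (log2 fold change 0.68, adjusted p = 0.0188), and the cyclins Ccnd1 (log2 fold change 1.12, adjusted p = 0.0436) and Ccnd2 (log2 fold change 1.04, adjusted p = 0.0283) rose as well. Ube2c, described with the other drinks, was the fifth. Mki67, a general proliferation marker, had 2.15, 3.43, 2.02 and 3.55 CPM in RL7_ML, against 0.715, 2.46, 0.669 and 1.22 CPM in HU_ML with overlapping ranges (log2 fold change 1.08 ± 0.74 SE, adjusted p = 0.391). The number of rising cell cycle genes was 1 without HU_ML 4, 3 without RL7_ML 1, 3, 4 or 6 or HU_ML 1 or 6, 0 with the 12 liver-transcript libraries left out and 2 with 5.8S level as a covariate. Calls lost when 1 library was left out were those of Heyl without RL7_ML 3 or 4 or HU_ML 4 or 6 (0.122), Sdc4 without RL7_ML 1, 3, 4 or 6 or HU_ML 1 or 4 (0.155) and Aurka without HU_ML 4 (0.0622), where parentheses hold the highest adjusted p. Likewise lost were Mcm2 without RL7_ML 1 or HU_ML 4 (0.107), Ccnd1 without RL7_ML 3, 4 or 6 or HU_ML 1, 4, 5 or 6 (0.146) and Ccnd2 without RL7_ML 1, 3, 4 or 6 or HU_ML 1, 4 or 6 (0.0983). Missing the threshold were Myf6, Heyl, Sdc4, Aurka, Mcm2, Ccnd1, Ccnd2 and Ube2c with the 12 liver-transcript libraries left out (adjusted p 0.0686 to 0.382), and Myf6, Heyl, Sdc4, Mcm2, Ccnd1 and Ccnd2 with 5.8S level as a covariate (0.0982 to 0.273).

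Among leukocyte markers 1 macrophage marker passed the test, beside 5.91% of all genes tested, while some interferon-stimulated genes rose. Of 20 macrophage markers Mertk, a receptor for dying cells, fell (log2 fold change -0.65, adjusted p = 0.0351) and 0 rose. Their summed level was 59.0 to 101 CPM in RL7_ML and 57.9 to 116 CPM in HU_ML. Of 19 markers of other white blood cells 5 were abundant enough to test and 0 changed. The neutrophil marker Ly6g had 0 counts in all 8 libraries. Of 28 interferon and antigen presentation genes 4 rose and 0 fell, with 27 of 28 log2 fold changes above 0 and a median of 0.73. Ifit3b, an antiviral protein with a near-identical neighbour, Ifit3, that could share reads, had 6.46, 2.86, 3.99 and 2.16 CPM in the reloaded libraries, against 0.656, 1.14, 0.982 and 1.704 CPM in the unloaded ones. Ifit3b rose 3.44-fold (log2 fold change 1.78 ± 0.37 SE, adjusted p = 0.00206). Bst2, tetherin, which holds budding virus, rose 3.14-fold (log2 fold change 1.65, adjusted p = 0.0123). Ifi27 (log2 fold change 0.72, adjusted p = 0.0367) and Isg15, a ubiquitin-like tag (log2 fold change 2.97, adjusted p = 0.0415), were the others. Isg15 stood at 0.412 to 1.58 CPM in RL7_ML and 0 to 0.185 CPM in HU_ML. Il6ra, the interleukin 6 receptor, was the 1 changed gene of 23 chemokine and cytokine genes, and fell 2.14-fold (log2 fold change -1.097, adjusted p = 0.00211). The number of rising interferon genes was 1 without RL7_ML 1 or HU_ML 4 or 6, 2 without RL7_ML 3 or HU_ML 1, 1 with the 12 liver-transcript libraries left out and 1 with 5.8S level as a covariate. With 1 library left out at a time, the calls lost were those of Mertk without RL7_ML 1, 4 or 6 or HU_ML 4 or 5 (0.161), Bst2 without RL7_ML 1 or HU_ML 4 or 6 (0.0656), Ifi27 without RL7_ML 1, 3 or 6 or HU_ML 1, 4 or 6 (0.174) and Isg15 without RL7_ML 1, 3 or 4 or HU_ML 1, 4, 5 or 6 (0.107), where parentheses hold the highest adjusted p. The threshold was missed by Mertk, Bst2, Ifi27 and Isg15 with the 12 liver-transcript libraries left out (adjusted p 0.264 to 0.488), and by Mertk, Bst2, Ifi27, Isg15 and Il6ra with 5.8S level as a covariate (0.0577 to 0.154).

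Of 19 clock genes 1 rose and 4 fell. The reference for this and the next lists is all genes tested, of which 2.69% rose and 3.22% fell. Per1, a clock repressor that glucocorticoids also induce, had 27.02, 37.02, 43.3 and 67.5 CPM in RL7_ML libraries, against 107, 124, 131 and 104 CPM in HU_ML libraries. Per1 fell 2.67-fold (log2 fold change -1.41 ± 0.29 SE, adjusted p = 0.00207). Nfil3, a repressor of clock output, had 6.51, 5.28, 4.78 and 4.94 CPM in RL7_ML, against 16.9, 25.6, 9.904 and 7.24 CPM in HU_ML. Nfil3 fell 2.796-fold (log2 fold change -1.48 ± 0.29 SE, adjusted p = 0.00103). Arntl, also called Bmal1, fell as well (log2 fold change -0.92, adjusted p = 0.0266). Dbp, an activator that Nfil3 opposes, had 67.99, 76.5, 72.3 and 85.9 CPM in the reloaded libraries, against 37.1, 18.6, 53.7 and 42.9 CPM in the unloaded ones. Dbp rose 1.99-fold (log2 fold change 0.99 ± 0.202 SE, adjusted p = 0.00162). The hour of sampling is not in the labels. Of 23 immediate early genes, which respond to stimulation within minutes, Jun (log2 fold change -0.86, adjusted p = 0.00168) and Klf6 (log2 fold change -0.85, adjusted p = 0.000518) fell and 0 rose. Fosb stood at 0.108 to 0.345 CPM in RL7_ML and 0.0923 to 0.312 CPM in HU_ML (log2 fold change 0.35 ± 0.95 SE, adjusted p = 0.865). Of 23 antioxidant genes 2 rose and 3 fell. Gstp1 (log2 fold change 0.78, adjusted p = 0.00883) and Gstp2 (log2 fold change 1.08, adjusted p = 0.00262), near-identical glutathione transferases that could share reads, rose. Mt1, Gstm2 (log2 fold change -0.85, adjusted p = 0.00656) and Gpx3 (log2 fold change -0.67, adjusted p = 0.0141) fell. Hsph1, a co-chaperone of HSP70, was the 1 changed gene of 19 heat shock genes, and rose 1.77-fold (log2 fold change 0.82, adjusted p = 0.000577). In the list of senescence and p53 genes, 15 tested, Gadd45b rose (log2 fold change 0.91, adjusted p = 0.0339) and Igfbp3 and Trp53inp1 (log2 fold change -0.97, adjusted p = 0.000197) fell. Cdkn1a, the cell cycle inhibitor p21, had 9.59 ± 3.15 CPM in RL7_ML and 18.3 ± 6.21 CPM in HU_ML (log2 fold change -0.94 ± 0.31 SE, adjusted p = 0.0637). Of 12 polyamine genes Oaz2 rose (log2 fold change 0.38, adjusted p = 0.0451). Lists of the unfolded protein response (17 tested), ribosome biogenesis (18), Schwann cells (11), adipocytes (12), red blood cells (8) and liver transcripts (16) had 0 changed members. When 1 library was left out, the calls that ended were those of Arntl without RL7_ML 6 or HU_ML 1, 4 or 6 (0.0983), Gstp1 without HU_ML 4 (0.0701) and Gstm2 without HU_ML 4 (0.0636), where parentheses hold the highest adjusted p. Likewise lost were Gpx3 without HU_ML 4 or 5 (0.0629), Gadd45b without RL7_ML 1 or 3 or HU_ML 1, 4, 5 or 6 (0.149) and Oaz2 without RL7_ML 1, 3, 4 or 6 or HU_ML 1, 4 or 6 (0.206). Missing the threshold were Arntl, Dbp, Jun, Klf6, Gstp1, Gstp2, Gstm2, Gpx3, Gadd45b and Oaz2 with the 12 liver-transcript libraries left out (adjusted p 0.054 to 0.557), and Arntl, Gstp1, Gstm2, Gadd45b and Oaz2 with 5.8S level as a covariate (0.0678 to 0.256). The lost calls of Mt1 are given with the glucocorticoid-responsive genes.

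**Figure D4:**
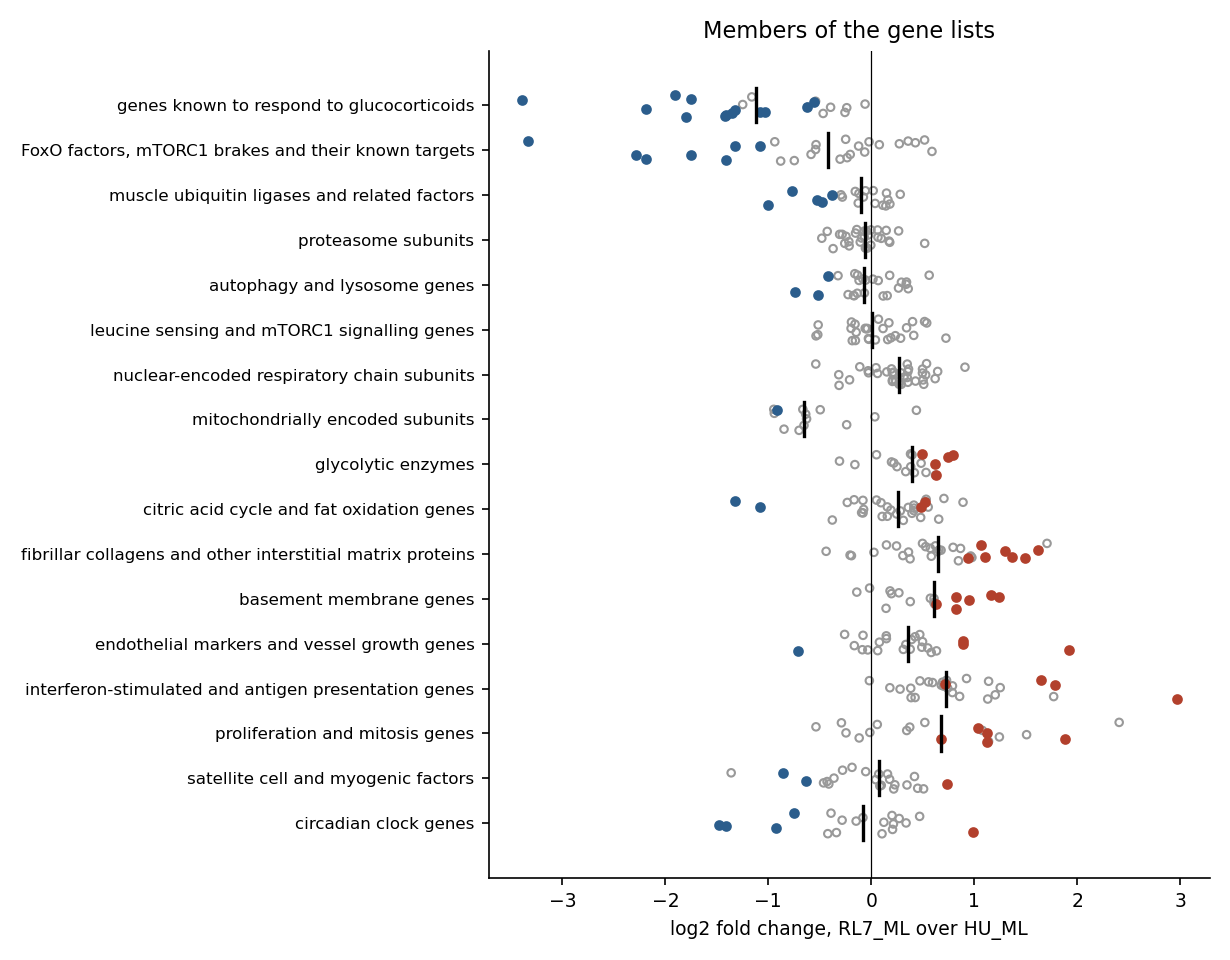
Log2 fold changes of RL7_ML over HU_ML for the members of 17 gene lists: red dots rose, blue dots fell, open grey dots did not pass, and the black bar is the list's median. All 22 glucocorticoid-responsive genes lie left of 0, the matrix and basement membrane lists lie mostly right of 0, and the proteasome list has 0 filled dots.

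Among the leading genes outside these lists, Depp1, a FoxO-induced protein of the autophagy and peroxisome pathways, had 3.12, 2.198, 1.72 and 3.04 CPM in RL7_ML libraries, against 12.8, 35.6, 9.99 and 5.72 CPM in HU_ML libraries. Depp1 fell 6.44-fold (log2 fold change -2.69 ± 0.48 SE, adjusted p = 0.000364). Doc2b, a calcium sensor of vesicle release, had 0.861, 0.747, 0.394 and 0.721 CPM in RL7_ML, against 2.504, 8.95, 2.45 and 2.13 CPM in HU_ML (log2 fold change -2.58 ± 0.45 SE, adjusted p = 0.000274). Fam107a, a stress-induced actin regulator, had 1.29, 0.923, 1.43 and 1.49 CPM in the reloaded libraries, against 4.65, 7.38, 4.77 and 3.47 CPM in the unloaded ones (log2 fold change -1.996 ± 0.31 SE, adjusted p = 4.4e-05). All 3 had no overlap, which the rule that chose them required, and HU_ML 4 was the highest library in each. Nab2, a corepressor of the EGR factors, had 5.22, 4.44, 4.92 and 4.38 CPM in RL7_ML libraries, against 1.61, 1.26, 1.83 and 1.34 CPM in HU_ML libraries. Nab2 rose 3.14-fold (log2 fold change 1.65 ± 0.27 SE, adjusted p = 8.35e-05). Hist1h1d, a linker histone, had 10.8, 7.78, 11.4 and 9.84 CPM in RL7_ML, against 4.47, 2.31, 2.54 and 3.104 CPM in HU_ML. Hist1h1d rose 3.23-fold (log2 fold change 1.69 ± 0.34 SE, adjusted p = 0.00144). Ccdc69 had 4.199, 4.48, 4.68 and 3.502 CPM in the reloaded libraries, against 1.13, 1.11, 1.61 and 1.34 CPM in the unloaded ones. In these 3 genes, chosen by the same rule, the groups did not overlap (log2 fold change 1.6998 ± 0.29 SE, adjusted p = 0.000184 for Ccdc69). Metrn, a secreted neurotrophic protein, rose 3.02-fold (log2 fold change 1.59, adjusted p = 0.00155). Vasp, an actin filament elongator, rose 2.83-fold (log2 fold change 1.4999, adjusted p = 0.00225). Golga7b, a partner of palmitoyl transferases, rose 2.94-fold (log2 fold change 1.56, adjusted p = 0.0023). Rpph1, the RNA of ribonuclease P, had 837, 426, 395 and 502 CPM in RL7_ML libraries, against 218, 146, 240.4 and 104 CPM in HU_ML libraries, with RL7_ML 1 the highest (log2 fold change 1.61 ± 0.44 SE, adjusted p = 0.0227). Leaving out 1 library at a time ended the calls of Rpph1 without RL7_ML 1 or HU_ML 4 or 6 (0.0964), where parentheses hold the highest adjusted p. The threshold was missed by Hist1h1d, Metrn, Vasp and Rpph1 with the 12 liver-transcript libraries left out (adjusted p 0.0742 to 0.351), and by Rpph1 with 5.8S level as a covariate (0.195).

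The same step from unloading to 7 d of reloading was measured in mice on water, metformin or leucine alone, in libraries not shared with this comparison. With water 813 genes differed (4.88%), 329 higher (1.97%) and 484 lower (2.9%). With metformin 4930 differed (29.6%) and with leucine 4771 (28.6%). Without 1 library the water count was 410 (HU_W 2), 525 (HU_W 3), 473 (RL7_W 1) or 408 (RL7_W 2), and the leucine count 2772 (HU_L 5) or 3004 (RL7_L 5). With the 12 liver-transcript libraries left out they were 248 and 760. The metformin and leucine pairs also differed in 5.8S level, at 0.379 to 1.63 CPM in reloaded against 10.03 to 32.8 CPM in unloaded libraries. With 5.8S as a covariate 49 and 25 genes differed in them. In the water pair 5.8S was 2.91 to 7.39 CPM in reloaded and 7.99 to 13.8 CPM in unloaded libraries, and with the covariate 440 genes differed. Of the 449 genes higher with both drinks, 126 were also called higher with water (28.1% of these 449 and 38.3% of the 329 called higher with water). With metformin 364 were (81.1% and 14.2%) and with leucine 339 (75.5% and 13.8%), as shares of each list. Of the 536 lower, 269 were also called lower with water (50.2% and 55.6%), 433 with metformin (80.8% and 18.3%) and 469 with leucine (87.5% and 20.2%). No gene was called in opposite directions. Foxo1 had a log2 fold change of -2.45 with water, -2.49 with metformin and -2.89 with leucine, beside -2.28 with both. For Ddit4 these values were -4.49 with water, -4.04 with metformin and -4.55 with leucine, beside -3.33. For Trim63 they were -1.004 with water, -1.79 with metformin and -1.75 with leucine, beside -0.9996. Fbxo32 had -0.36 with water, -1.23 with metformin and -1.15 with leucine, beside -0.77 with both, and its adjusted p with water was 0.381. Col3a1 had 1.31 with water, 2.64 with metformin and 2.52 with leucine, beside 1.62. Aplnr had 2.64 with water, 2.61 with metformin and 2.32 with leucine, beside 1.92. Sln, which had the largest drop with both drinks, had -1.797 with water, -1.81 with metformin and -1.63 with leucine, beside -4.02. Its drop with water did not pass the test. No difference in Sln between both drinks and water, metformin or leucine was called.

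**Figure D5:**
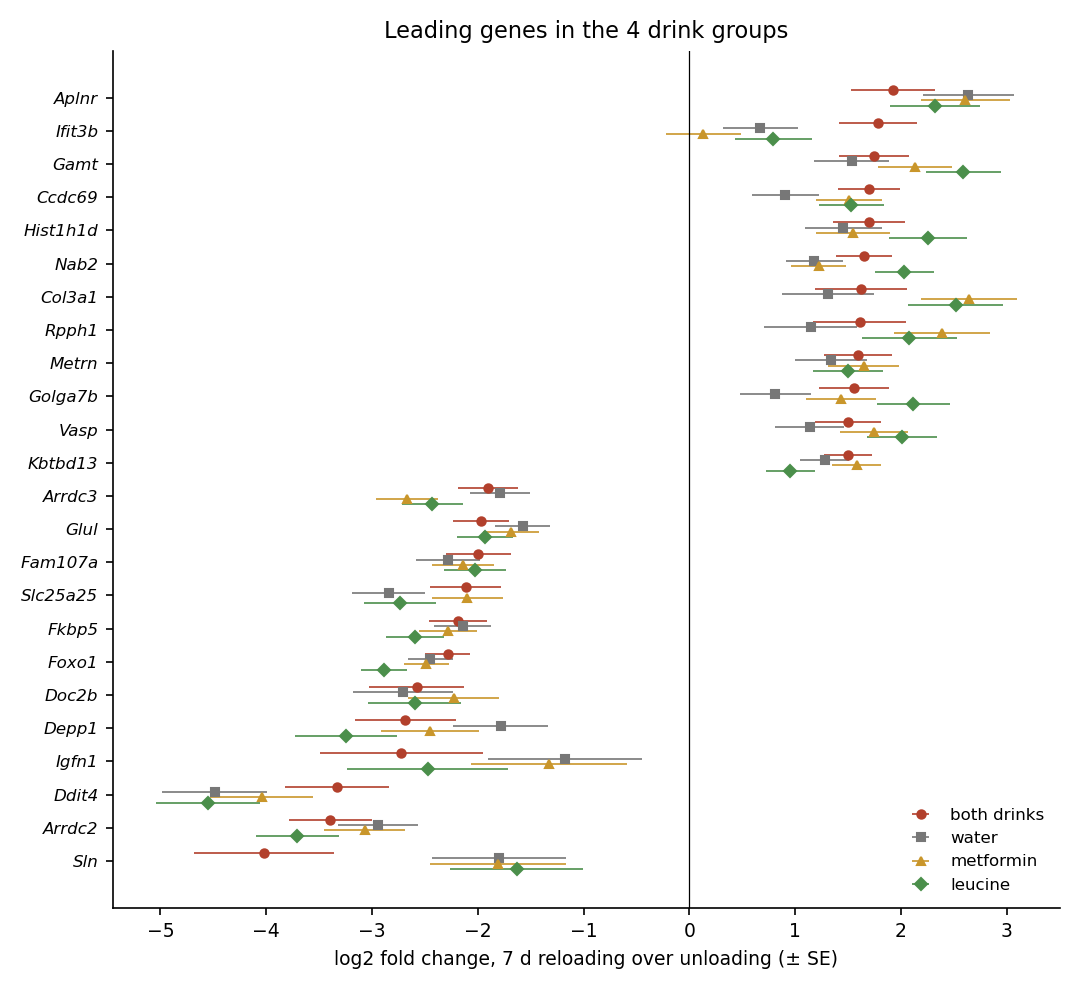
Log2 fold change ± SE of reloaded (7 d) over unloaded muscle for the 24 leading genes, in mice on both drinks, water, metformin or leucine. Every gene has the same sign under all 4 drinks.

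The difference between these changes was tested for each single drink. Against water, 2 genes (0.012%) had a change that differed, with 466 at an unadjusted p under 0.05. DESeq2 called 7 and limma voom 0. Against metformin 0 genes differed (1087 unadjusted; DESeq2 10) and against leucine 0 (1015 unadjusted; DESeq2 2). The gene pair that differed from water was Ube2c, a ubiquitin-conjugating enzyme of mitosis, and A930016O22Rik, a noncoding transcript chosen after its values were seen. Ube2c had 8.56, 8.71, 1.77 and 2.68 CPM in RL7_ML, against 1.79, 1.38, 1.34 and 1.40004 CPM in HU_ML, with 2 reloaded libraries high and 2 near the unloaded level (log2 fold change 1.89 ± 0.41 SE, adjusted p = 0.00354). By limma voom the adjusted p of this rise was 0.0682, and with the 12 liver-transcript libraries left out it was 0.0951. With water it averaged 1.55 ± 0.195 CPM in RL7_W and 3.72 ± 1.06 CPM in HU_W, and the difference of the 2 log2 changes was 3.15 ± 0.59 SE (adjusted p = 0.0361). A930016O22Rik had 8.88, 5.94, 2.61 and 3.66 CPM in the reloaded libraries, against 1.55, 1.23, 1.205 and 1.096 CPM in the unloaded ones (log2 fold change 2.05 ± 0.35 SE, adjusted p = 0.000221). With water it averaged 1.02 ± 0.284 CPM in RL7_W and 1.66 ± 0.385 CPM in HU_W, and the changes differed by 2.76 ± 0.53 SE (adjusted p = 0.0361). Both lie opposite a very abundant muscle gene. Ube2c lies opposite the troponin gene Tnnc2 and A930016O22Rik opposite the creatine kinase gene Ckm, so that their reads cannot be told from those of the partner without a stranded count. Tnnc2 had 3522, 2239, 2124 and 1911 CPM in RL7_ML libraries, against 2937, 2095, 2133 and 2507 CPM in HU_ML libraries. Ckm had 13470.5, 8940.1, 10321 and 9804 CPM in RL7_ML, against 8628, 6669.7, 7824 and 7392 CPM in HU_ML. In Ckm, as in A930016O22Rik, the groups did not overlap. The difference in Ube2c missed the threshold without any 1 of 12 of the 16 libraries (adjusted p 0.0549 to 0.271), all but HU_W 2, HU_W 4, RL7_ML 4 and RL7_ML 6, and with the 12 liver-transcript libraries left out (adjusted p = 0.795). The difference in A930016O22Rik missed the threshold without any 1 of 13 of the 16 libraries (adjusted p 0.0549 to 0.271), all but HU_W 2, RL7_ML 4 and RL7_ML 6, and with the 12 liver-transcript libraries left out (adjusted p = 0.795). Neither difference was called without the filter on low counts, by limma voom or in a fit of only these groups.

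Where reloaded muscle stood relative to ambulatory muscle was asked with RL7_ML against AMB_W, which differ in drink as well as in loading history and share the RL7_ML libraries with the comparison above. Here 747 genes differed (4.48%), 490 higher (2.94%) and 257 lower (1.54%). With 5.8S level as a covariate 1 gene differed, Cldn5, and the counts of the 4 lists given here were all 0. n-R5-8s1 averaged 1.76 ± 1.26 CPM in RL7_ML and 11.3 ± 3.37 CPM in AMB_W. The count was lower by more than 1.5-fold without any 1 of the 8 libraries. It was 161, 321, 309 and 265 without RL7_ML 1, 3, 4 or 6, and 154, 341, 268 and 116 without AMB_W 2, 3, 4 or 5. Of the 19 glycolysis identifiers 10 were higher (5 without AMB_W 5, 4 without RL7_ML 1), and Pgam2 was higher by 0.78 on the log2 scale (adjusted p = 0.0137). Of 33 ribosomal proteins 13 were higher (8 without AMB_W 2, 6 without AMB_W 5, 5 without RL7_ML 1) and 0 lower. Other fits also called some of the 33 lower: limma voom called 18 higher and 9 lower, DESeq2 14 and 1, a fit of only these groups 18 and 4, and the fit without RL14_ML 1 and 6 called 14 and 5. Of 13 genes of the mitochondrial genome 7 were lower, with mt-Nd2 at 7799 ± 1815 CPM in RL7_ML and 20543 ± 2078 CPM in AMB_W (log2 fold change -1.397, adjusted p = 0.00457). The leading genes were Rpph1 (log2 fold change 2.47, adjusted p = 0.00361), Trp53i11 (log2 fold change 1.88, adjusted p = 0.00623) and Scand1 (log2 fold change 1.76, adjusted p = 0.0472), all higher. Lower were the mitochondrial genes mt-Tr (log2 fold change -2.06, adjusted p = 0.0249), mt-Tm (log2 fold change -1.97, adjusted p = 0.00282) and mt-Nd4l (log2 fold change -1.68, adjusted p = 0.0273), although mt-Tr stood at 0.05 on the log2 scale with 5.8S level as a covariate. Cldn5 was also higher, at 4.78 ± 1.34 CPM in RL7_ML and 1.59 ± 0.354 CPM in AMB_W (log2 fold change 1.59, adjusted p = 0.00029). Of 30 fibrillar matrix genes 2 were higher, and 0 or 1 without any 1 library. Col1a1 averaged 58.05 ± 36.5 CPM in RL7_ML and 51.5 ± 12.004 CPM in AMB_W (log2 fold change 0.17, adjusted p = 0.863). Col3a1 averaged 101 ± 38.9 CPM in RL7_ML and 73.3 ± 8.82 CPM in AMB_W (log2 fold change 0.46, adjusted p = 0.513). Trim63 averaged 129 ± 21.97 CPM in RL7_ML and 149 ± 18.9 CPM in AMB_W (log2 fold change -0.201, adjusted p = 0.649). Fbxo32 averaged 375 ± 64.97 CPM in RL7_ML and 535 ± 46.1 CPM in AMB_W (log2 fold change -0.51, adjusted p = 0.156). Calls against AMB_W that ended when 1 library was left out were those of Scand1 without RL7_ML 1, 3, 4 or 6 or AMB_W 2, 3, 4 or 5 (0.122), mt-Tr without RL7_ML 1, 4 or 6 or AMB_W 5 (0.0982), mt-Nd4l without RL7_ML 1, 4 or 6 or AMB_W 2 or 5 (0.0792) and Pgam2 without RL7_ML 1 or AMB_W 5 (0.0722), where parentheses hold the highest adjusted p.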

How the data were processed

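Total RNA of gastrocnemius muscle was sequenced after ribosomal RNA removal with a stranded kit, per the labels' protocols. The deposited table holds raw counts per gene for 52 libraries. The submitters' processing notes name STAR 2.7.3a, featureCounts 1.6.3, DESeq2 1.30.0 and the build GRCm38; the annotation release and the strand setting are not given in the sources used here. Of 55487 gene identifiers, 55141 were matched to names and coordinates of a GRCm38 annotation, and 106 symbols belonged to more than 1 gene. Every column was tied to a sample by its label.

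Groups and replicate numbers came from the sample titles. Genes passing edgeR's expression filter (minimum count 10, 16668 genes) were fitted by edgeR 4.0.16 in R 4.3.3 with TMM scaling, 1 mean per group over all 13 groups, and the robust quasi-likelihood test. Here 39 residual degrees of freedom were shared, and the common dispersion was 0.0449612. A gene was called at a Benjamini-Hochberg adjusted p under 0.05 over all genes tested. The standard error is the log2 fold change divided by the root of the F statistic. Every adjusted p in the text comes from this test unless DESeq2 or limma is named. CPM use library totals times TMM factors. No pair of libraries within a group agreed within sampling noise: chi-square divided by its degrees of freedom was at least 7.47 over 78 pairs. Figures were drawn with matplotlib 3.10.9.

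The comparison, its gene lists and the libraries left out as alternatives were chosen with earlier results of these data known. Genes named were the 12 highest and 12 lowest fold changes among changed genes that had a proper gene name, groups without overlap and a mean log2 CPM of 1 or more, the leading differences of the other tests by like rules, the changed list members with the smallest p, and a set of classic muscle genes. The other changed list members, A930016O22Rik, Tnnc2 and Ckm were chosen after their values were seen. The script was tested on simulated data. Alternatives were other scaling (DESeq2 size factors), no filter, a non-robust prior, limma 3.58.1 voom with quality weights, DESeq2 1.42.0, only the groups compared, each library left out, a replicate block, the libraries with liver transcripts left out, 5.8S level as a covariate, and RL14_ML (14 d of reloading with both drinks) 1 and 6 left out of the shared spread. Some genes counted in the lists are not reported here by name.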

Additional observations from a re-analysis of the deposited data

Results flagged for a closer look

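In 15 of 114 sets of 4 values checked (57 measures in RL7_ML and in HU_ML), 1 library stood apart by Dixon's test at the 95% level, which chance does in about 1 of 20 sets. In RL7_ML, RL7_ML 3 was the highest for Col1a1 (112 CPM) and Col1a2 (129 CPM) and the lowest for Gamt (8.44 CPM). RL7_ML 1 was the highest for Cldn5 (6.78 CPM), RL7_ML 6 for Aplnr (4.79 CPM) and RL7_ML 4 for the liver transcript Alb (9.85 CPM), and RL7_ML 4 was the lowest for Glul (146 CPM), where the other 3 reloaded libraries were nearly equal. In HU_ML, HU_ML 4 was the highest for Arrdc3 (232 CPM), Cebpd (48.3 CPM), Pik3r1 (127 CPM) and Doc2b (8.95 CPM). HU_ML 1 was the highest for Igfn1 (99.4 CPM) and Ube2c (1.79 CPM), and HU_ML 5 was the highest for Myod1 (9.28 CPM) and the lowest for Gamt (1.38 CPM). The change with both drinks differed from the change with water in Ube2c, by 3.15 on the log2 scale (edgeR adjusted p = 0.0361), and in A930016O22Rik, by 2.76 (adjusted p = 0.0361).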

How the results depend on the processing

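Of 119 changed genes named for RL7_ML against HU_ML, 50 passed with any 1 library left out and 33 under all 17 alternatives without a block; none of the 119 reversed. The losses were 85 without the 12 liver-transcript libraries, 69 with the 5.8S covariate, 68 without HU_ML 4, 37 without a filter, 15 to 36 without each other library, and at most 9 under the rest. Leaving out the 12 libraries takes HU_ML to 2 libraries; the causes of the other shifts were not tested. With 4 libraries a group, log2 differences as large as 1.71 ± 0.55 SE (Col1a1) and -0.94 ± 0.31 SE (Cdkn1a) did not pass, and genes under the filter were not tested.

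Beside 985 genes for RL7_ML against HU_ML, the count was 545 without a filter, 133 without the 12 liver-transcript libraries, 297 with the 5.8S covariate, 2113 without RL14_ML 1 and 6, 2799 by limma voom, 1870 in a fit of only these groups, and 359 to 1256 with 1 library left out (DESeq2 1454, other size factors 1020, non-robust prior 990). For the difference from the water pair (2 genes) it was 0 without a filter, 0 without the 12 libraries, 0 by voom, 7 by DESeq2, 1 in a fit of only these groups and 0 to 3 with 1 library left out. The 1 gene called in the fit of only these groups was neither of the 2. The same held for the 1 gene called without HU_W 3 and the 1 called without HU_ML 4. For the difference from metformin (0) DESeq2 called 10, with 0 to 1 when 1 library was left out, and for that from leucine (0) DESeq2 called 2 and the fit without RL14_ML 1 and 6 called 1, with 0 to 1 when 1 library was left out.

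For RL7_ML against AMB_W (747) the count was 241 without a filter, 1 with the 5.8S covariate, 2672 without RL14_ML 1 and 6, 4499 by voom, 1551 by DESeq2, 3886 in a fit of only these groups and 116 to 341 with 1 library left out; mt-Tr, lower there, stood at 0.0549 on the log2 scale with the 5.8S covariate (adjusted p = 1). For RL7_W against HU_W (813) it was 458 without a filter, 248 without the 12 libraries, 440 with the 5.8S covariate, 1355 without RL14_ML 1 and 6, 2778 by voom, 2033 in a fit of only these groups and 408 to 796 with 1 library left out. For RL7_M against HU_M (4930) it was 49 with the 5.8S covariate and 3516 to 4760 with 1 library left out, and for RL7_L against HU_L (4771) 25 with the covariate, 760 without the 12 libraries and 2772 to 4771 with 1 library left out.

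The labels do not say whether the replicate numbers shared by RL7_ML and HU_ML (1, 4 and 6) mark pairs. Same-numbered libraries deviated from their group means with correlations across genes of 0.163, 0.000414 and -0.0668. Between differently numbered libraries the correlations ran from -0.128 to 0.205. So few values cannot settle whether the numbers mark pairs. With the replicate block, in fits of the shared numbers only, the counts were 1581 (1638 without the block), 0 (0) for the difference from water, 2360 (1936) for RL7_ML against AMB_W, 1441 (2033) for RL7_W against HU_W and 3077 (4082) for RL7_M against HU_M. For the difference from leucine no paired analysis was possible because the 4 groups share only number 1.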
